A study of Mus musculus with 13 samples.

Results

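Genes of excision repair, mismatch repair, DNA end joining and lesion bypass were compared between skin tumours of G9a WT and G9a cKO mice. The list holds 45 genes, and 41 of them had a probe set with that gene as its only symbol among the 17097 genes read this way on the arrays. The other 4 (Ercc6, Gtf2h1, Gtf2h2 and Dclre1c) are not analysed here. Where a gene had several probe sets, the one with the highest mean on the 13 arrays stood for it, a choice that did not use the difference between the groups. Values are log2 expression after RMA, the authors' background correction, normalization and summary over the probes of a set, so a difference of 1 is a doubling of signal.

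The 13 arrays came from squamous cell carcinomas (labelled SCC) of G9a WT mice (n = 6) and of G9a cKO mice (n = 7), cKO being a conditional knockout of G9a, the histone H3 lysine 9 methyltransferase encoded by Ehmt2. All mice of both groups received the carcinogen DMBA (200 µl at 0.25 mg/ml) and the tumour promoter TPA (200 µl at 0.02 mg/ml) on the back skin once weekly for 6 weeks from 8 weeks of age, and further TPA for up to 20 weeks. The Cre driver, the floxed allele, the strain and the sex of the mice are not stated in the labels. Nor do the labels say that the tumours came from separate mice, so p-values measure only the spread between these samples. The comparison asks how the knockout bears on repair gene expression in tumours of mice whose series title speaks of mutation patterns and genomic instability.

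These genes divide the work of keeping the sequence intact. Nucleotide excision repair removes bulky adducts, the kind of lesion that DMBA leaves after metabolic activation: a damage sensor opens the site, helicases unwind it and a pair of nucleases cut out the strand. Base excision repair starts with a glycosylase that lifts out a damaged base, mismatch repair corrects errors of replication, and non-homologous end joining seals broken ends. Translesion polymerases copy past lesions that remain, and Mgmt removes alkyl groups directly.

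Array medians lay between 5.09 and 5.14, and values spread less on cKO arrays (SD within an array of 1.83 to 1.88) than on WT arrays (1.91 to 1.94). Nonspecific control probe sets, which match no mouse transcript, had differences between the groups from -0.307 to 0.082, and 18 hybridisation control probe sets differed by 0.0573 to 0.493. Differences within these ranges are not set apart from those of controls. In 6 pairs of arrays that follow each other in the value table, what 1 array had above its group mean the other had below it, with correlations of their deviations from -0.956 to -0.88. The arrays are thus not independent, and a gene is said here to have risen or fallen only where it was called both without and with a term for these pairs. Ehmt2 probe set 2 fell by 2.33, from 8.33 ± 0.19 (SD, n = 6) to 6.01 ± 0.10 (SD, n = 7), with a two-sided exact permutation p of 0.000583, the smallest this design can give. Ehmt2 probe set 1 differed by 0.13 (exact permutation p = 0.131, n = 6 and 7), and where either set lies relative to the deleted part is not stated in the labels.

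Rad23b and Cetn2 of nucleotide excision repair had the largest differences of the list, both lower in cKO tumours. The genes called higher both without and with the pair term differed by 0.20 to 0.41. Of 41 repair genes, 14 were higher and 7 lower at a limma adjusted p under 0.05 (Benjamini-Hochberg over all genes), against 25.7% higher and 20.1% lower, or 45.8% called in all, among the 17097 genes. With the pair term 9 rose (14.4% of all genes were higher) and 3 fell (10.3% of all genes were lower). These 12 of the 41 repair genes were called in both fits, a share of 29.3%. Over all genes the share called in both fits was not computed, and 24.7% were called in the fit with the pair term. These shares are near the background, so the count of called genes is no result about the list. A difference larger than 0.307, the largest size in a nonspecific control, was found for 11 of the 41 (26.8%) and for 23.7% of all genes. The groups did not overlap for 10 of the 41 (24.4%), and for 23.0% of all genes. No repair gene changed over 2-fold on its probe set of highest mean. The median difference of the list was 0.003, beside 0.017 over all genes, and 0.06 beside 0.037 after quantile normalization of the deposited values. Of the 12 genes called in both fits, all kept sign and call after quantile normalization, but 6 of them changed by no more than 0.307. All 9 genes that rose did so by less than 0.493, the upper end of the hybridisation controls, and so are not set apart from that range.

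**Figure D1:**
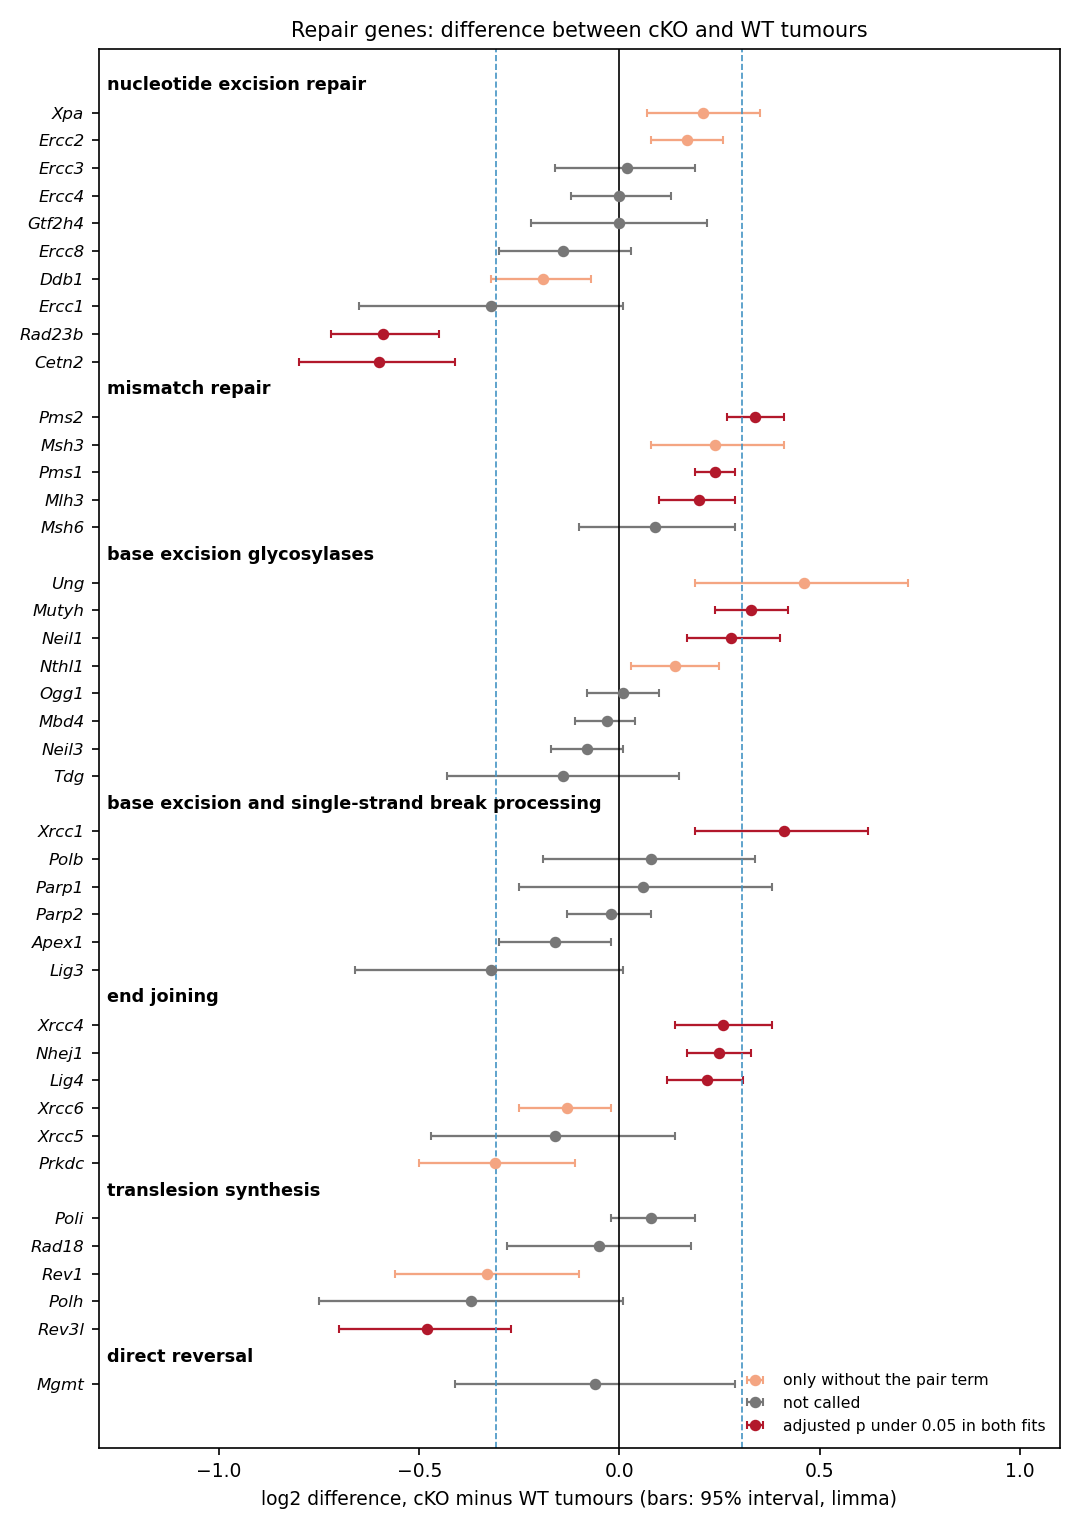
The log2 difference between cKO and WT tumours (x axis, points) is plotted with its 95% interval from limma (bars) for each of the 41 repair genes, grouped by role. Dark red marks the 12 genes called in both fits, light red the 9 called only without the pair term, grey the 20 not called, and dashed lines stand at 0.307 on either side of 0. Cetn2 and Rad23b lie farthest to the left, at -0.60 and -0.59.

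Rad23b and Cetn2 were the most strongly lowered of the 10 nucleotide excision genes measured. Both encode partners of XPC, and the complex of the 3 proteins recognises helix distortions anywhere in the genome. Rad23b read 7.48, 7.72 and 7.87 (lowest, median and highest) on the 6 WT arrays and 6.98, 7.11 and 7.19 on the 7 cKO arrays. Every cKO array lay below every WT array, and the difference was -0.59 (SE 0.061, limma adjusted p = 1.25e-05). Its other probe sets were lower as well: set 2 fell 2.91-fold, from 7.00 ± 0.15 to 5.46 ± 0.09 (SD, n = 6 and 7), and set 3 differed by -0.55, called only without the pair term. Cetn2, which encodes centrin 2, a protein also found at centrioles, read 8.14, 8.29 and 8.58 in WT and 7.49, 7.74 and 7.96 in cKO tumours. The groups were again apart, by -0.60 (SE 0.090, limma adjusted p = 0.000181). That probe set carries the suffix x, which the manufacturer gives to sets with probes that can match other transcripts; set 2, without the suffix, fell by 0.97, from 7.70 to 6.73.

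Xpc, the third partner, stands among 50 further genes of these pathways, a list drawn up with earlier results of these data known. It read 5.27, 5.50 and 5.83 in WT and 4.77, 4.96 and 5.06 in cKO tumours. Xpc thus fell by 0.58 (SE 0.086, limma adjusted p = 0.000168), with no overlap, so all 3 genes of the sensor complex were lower in cKO tumours. In tumour RNA, fewer cells of a type and less RNA per cell cannot be told apart, here and below.

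The other nucleotide excision genes showed smaller differences. Ddb1, the adaptor of the ubiquitin ligase that handles ultraviolet lesions, differed by -0.19, Xpa, a scaffold of the incision complex, by 0.21, and Ercc2, the XPD helicase of TFIIH, by 0.17. These 3 genes were called only without the pair term. Sets 2 and 3 of Xpa differed by -0.13 and -0.17, set 3 being called lower without the pair term (limma adjusted p = 0.017). The positive difference of Xpa therefore rests on 1 probe set. Set 2 of Ercc2 differed by -0.10. After quantile normalization the difference of Ddb1 was -0.03 (adjusted p = 0.71). Ercc1 and Ercc4 encode the subunits of the nuclease that cuts 5′ of the lesion. Ercc1 was not called, at -0.32 with a 95% interval of -0.65 to 0.01, and ranged from 7.83 to 8.83 on cKO arrays against 8.40 to 8.81 on WT arrays. Ercc4 differed by 0.00 (-0.12 to 0.13). Ercc3, the XPB helicase of TFIIH, differed by 0.02 (-0.16 to 0.19). Ercc8, the CSA protein of transcription-coupled repair, gave -0.14 (-0.30 to 0.03) on its brightest set and 0.26 on set 3, whose levels of 3.64 and 3.90 lay below 4.29, a mark that 3 in 4 nonspecific controls do not reach. Gtf2h4, the p52 subunit of TFIIH, differed by 0.00 (-0.22 to 0.22) on its brightest set and fell by 0.59 on set 2, from 5.80 to 5.21.

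**Figure D2:**
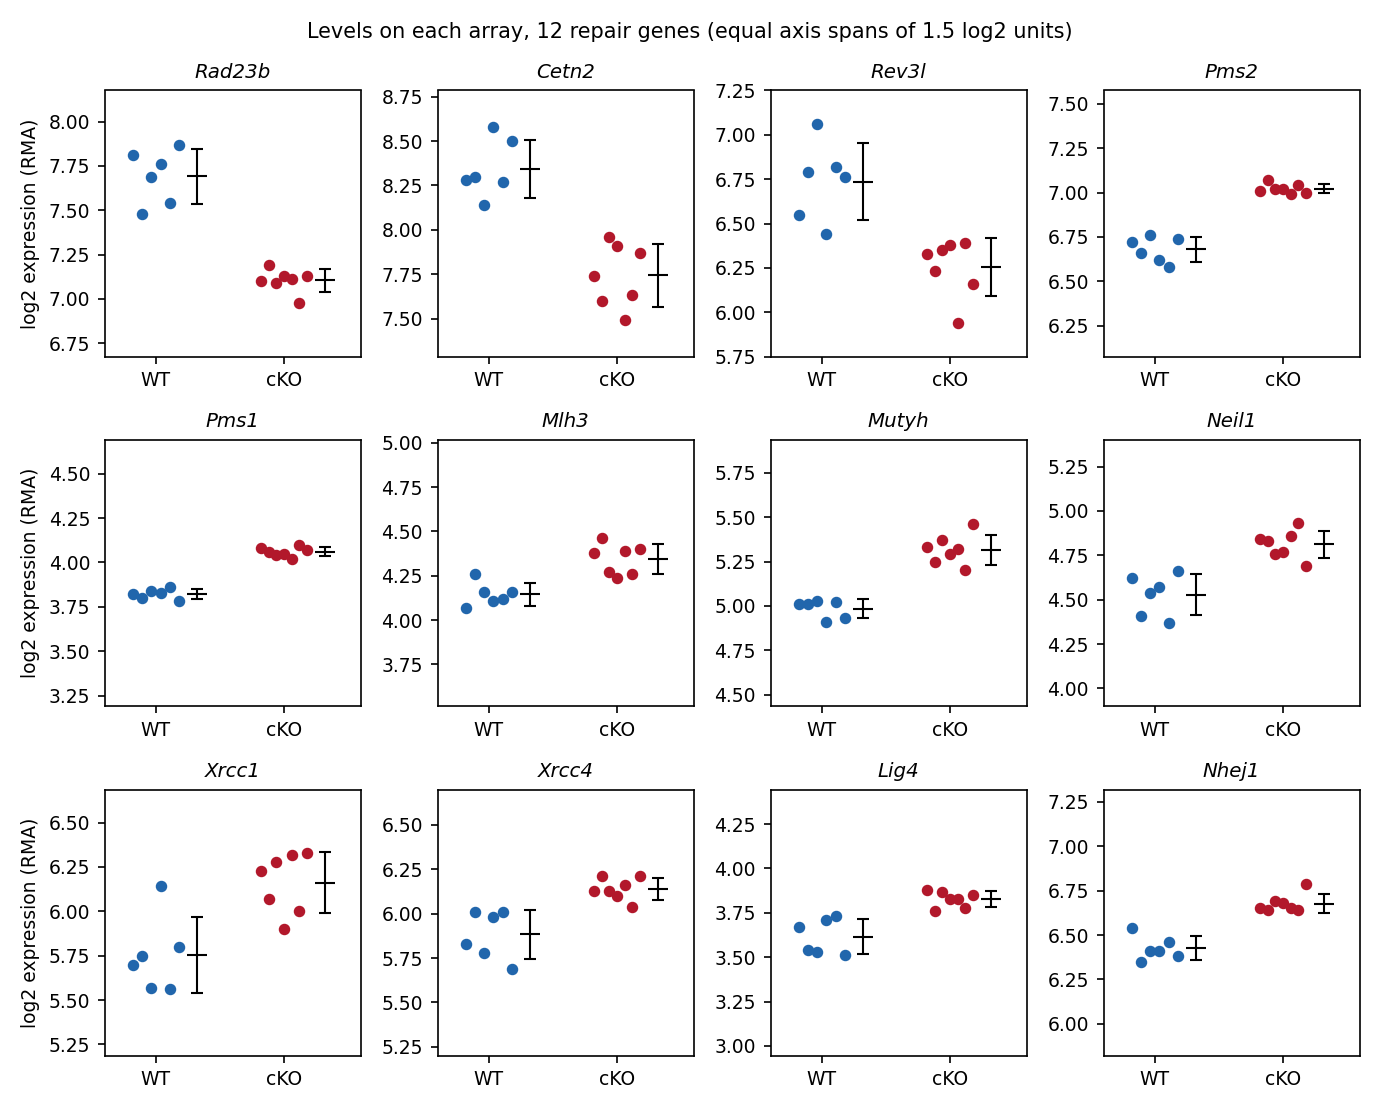
Levels on each array (y axis, log2 after RMA, each panel spanning 1.5 log2 units; points) are shown for the 12 repair genes called in both fits, in WT (blue, n = 6) and cKO tumours (red, n = 7), with mean and SD in black. The groups are apart for 10 genes and overlap for Mlh3 and Xrcc1.

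All 5 mismatch repair genes measured had a positive difference, and 3 of them, the MutL genes Pms2, Pms1 and Mlh3, were called higher in both fits. These 3 make 60.0% of the class, beside 14.4% of all genes higher in the fit with the pair term. With 5 genes the count is too small to set the class apart. MutL proteins act after the mismatch is found, and PMS2 carries the nuclease that cuts the strand with the error. Pms2 read 6.58, 6.69 and 6.76 on WT and 6.99, 7.02 and 7.07 on cKO arrays. This was a rise of 0.34, or 1.27-fold (SE 0.033, limma adjusted p = 6.97e-06), with narrow groups that stood clear of each other. Its dimmer sets 2 and 3, with WT means of 4.57 and 4.54, differed by 0.13 and 0.12, set 2 being called only without the pair term and set 3 not called (limma adjusted p = 0.182). Pms1 read 3.78, 3.83 and 3.86 in WT and 4.02, 4.06 and 4.10 in cKO tumours, a difference of 0.24 (SE 0.024, limma adjusted p = 8.42e-06). Mlh3 read 4.07, 4.14 and 4.26 in WT and 4.24, 4.38 and 4.46 in cKO tumours, a difference of 0.20 (SE 0.044, limma adjusted p = 0.00289), and the groups overlapped at their edge. The WT means of Pms1 and Mlh3, 3.82 and 4.15, and the cKO mean of Pms1, 4.06, lay below 4.29. No fold is given for signals this close to background. The cKO means of 4.06 and 4.34 lay below a floor of 4.36, the mean over WT arrays of each array's upper quartile of nonspecific controls. The size of a rise therefore cannot be bounded for either gene. With the pair term after quantile normalization Mlh3 was not called (limma adjusted p = 0.0799).

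The MutS genes, whose proteins find the mismatch, were less clear. Msh3, for insertion and deletion loops, differed by 0.24 and was called only without the pair term, with 6.62, 6.94 and 7.12 in WT and 7.06, 7.13 and 7.32 in cKO tumours. Msh6, for single base mismatches, differed by 0.09 with a 95% interval of -0.10 to 0.29.

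The regions upstream of 4 of these genes are shown because Rad23b and Cetn2 fell together while Pms2 and Nhej1, an end-joining gene described below, rose. Promoters were given for 36 of the 41 measured genes (RefSeq, GRCm38.p6, 250 bases before to 50 after the start). All motifs were searched on both strands of the window. Capitals mark exact matches to CCAAT, the NF-Y box, read on the other strand as ATTGG, and to GGGCGG, the GC box, read on the other strand as CCGCCC. The 250 bases before the start read 5′ to 3′ in the direction of the gene:
Rad23b (GRCm38.p6, chr4:55349792-55350041, plus strand): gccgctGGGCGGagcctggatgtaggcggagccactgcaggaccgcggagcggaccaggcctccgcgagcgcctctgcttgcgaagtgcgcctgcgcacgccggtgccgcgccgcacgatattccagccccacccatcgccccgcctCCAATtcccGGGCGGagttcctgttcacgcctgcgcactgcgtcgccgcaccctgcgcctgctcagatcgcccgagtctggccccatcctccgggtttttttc
Cetn2 (GRCm38.p6, chrX:72918345-72918594, minus strand): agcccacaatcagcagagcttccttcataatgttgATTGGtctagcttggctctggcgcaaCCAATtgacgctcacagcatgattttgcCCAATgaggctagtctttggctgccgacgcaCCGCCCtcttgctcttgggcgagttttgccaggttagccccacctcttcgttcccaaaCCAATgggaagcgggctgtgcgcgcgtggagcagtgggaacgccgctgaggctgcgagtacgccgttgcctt
Pms2 (GRCm38.p6, chr5:143909751-143910000, plus strand): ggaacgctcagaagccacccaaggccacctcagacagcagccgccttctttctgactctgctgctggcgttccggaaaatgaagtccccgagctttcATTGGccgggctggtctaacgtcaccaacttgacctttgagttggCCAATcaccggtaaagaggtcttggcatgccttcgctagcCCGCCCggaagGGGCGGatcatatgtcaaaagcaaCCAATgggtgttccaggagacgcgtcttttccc
Nhej1 (GRCm38.p6, chr1:75125227-75125476, minus strand): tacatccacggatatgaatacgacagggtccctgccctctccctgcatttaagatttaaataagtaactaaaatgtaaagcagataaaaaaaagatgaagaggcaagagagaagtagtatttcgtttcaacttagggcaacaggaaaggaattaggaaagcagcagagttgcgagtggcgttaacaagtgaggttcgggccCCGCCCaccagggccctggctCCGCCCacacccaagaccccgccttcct
CCAAT was present in the windows of 20 of the 36 genes (55.6%) and in 37.4% of all 32851 promoters of the table, and GGGCGG in 27 of 36 (75%) and in 35.7%. For every motif a repair gene counted if any of its promoter entries matched, while the table was counted by entry. This can raise the shares of the repair genes. Cetn2 has 4 matches to CCAAT and 1 to GGGCGG, Pms2 has 3 and 2, Rad23b has 1 and 2, and Nhej1 has none and 2. GGGCGG thus occurs upstream of all 4 genes shown, and CCAAT upstream of both shown genes that fell and 1 of the 2 that rose. The 4 were picked and do not stand for the rest. Over all 9 genes that rose, GGGCGG was present in the windows of 6 (66.7%) and CCAAT in those of 5 (55.6%). Any of the E2F sequences TTTGGCGC, TTTCGCGC, TTTCCCGC and TTTGCCGC occurred in 4 of 36 (Msh3, Msh6, Nthl1 and Xrcc6; 2.26% of all promoters) and in none of the 11 genes called in both fits with a promoter given. The NRF1 motif occurred for Lig4 and Polh (0.971% of all), the CRE sequence TGACGTCA for Tdg (1.79% of all) and the AP-1 sequence TGAGTCA for Gtf2h4 (5.20% of all). Repair gene promoters were richer in G and C than the table, with medians of 60% (41 promoter entries of the 36 genes) and 52.7%.

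Of 8 glycosylase genes, 4 were higher and none lower (25.7% and 20.1% of all genes). In both fits 2 rose (25%, beside 14.4% of all genes higher in the fit with the pair term). These counts are too small to set the class apart. Mutyh, whose enzyme removes adenine paired with oxidised guanine, read 4.91, 5.01 and 5.03 in WT and 5.20, 5.32 and 5.46 in cKO tumours. The rise was 0.33, or 1.26-fold (SE 0.042, limma adjusted p = 4.91e-05), with no overlap. Neil1, a glycosylase for oxidised pyrimidines, read 4.37, 4.55 and 4.66 in WT and 4.69, 4.83 and 4.93 in cKO tumours, a rise of 0.28 (SE 0.054, limma adjusted p = 0.00102), also with no overlap. Ung, the uracil DNA glycosylase, had the largest positive difference of all 41 genes, 0.46, but its groups overlapped (7.49, 7.80 and 8.11 against 8.02, 8.28 and 8.48) and it was called only without the pair term. Nthl1, which shares oxidised pyrimidines with Neil1, differed by 0.14 and was likewise called only without that term. Ogg1, the glycosylase for oxidised guanine itself, differed by 0.01 (-0.08 to 0.10) on its brightest set, by 0.13 after quantile normalization (limma adjusted p = 0.0164), and by -0.18 on set 2, called in both fits. Tdg, Mbd4 and Neil3 were not called, with differences of -0.14, -0.03 and -0.08. Neil3 set 2, at 3.42 in WT and 3.79 in cKO tumours, lay below 4.29 in both groups and differed by 0.37.

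After the glycosylase, base excision continues with the nuclease Apex1, the polymerase Polb and the ligase Lig3 on the scaffold Xrcc1. Xrcc1 alone of these 6 genes rose, by 0.41 or 1.32-fold (SE 0.100, limma adjusted p = 0.00541; adjusted p = 0.0485 with the pair term). It read 5.56, 5.73 and 6.14 in WT and 5.90, 6.23 and 6.33 in cKO tumours, and WT replicate 7, at 6.14, lay inside the cKO range. Lig3, the partner that Xrcc1 stabilises, differed by -0.32 (-0.66 to 0.01) on its brightest set. Its sets 2 and 3 fell, from 7.95 ± 0.04 to 7.67 ± 0.05 and from 7.11 ± 0.25 to 6.35 ± 0.22 (SD, n = 6 and 7), and sets 4 and 5 differed by 0.23 and 0.15. The probe sets of Lig3 thus went both ways. Apex1 differed by -0.16 and by 0.01 after quantile normalization, Polb by 0.08 (-0.19 to 0.34), and the strand-break sensors Parp1 and Parp2 by 0.06 (-0.25 to 0.38) and -0.02 (-0.13 to 0.08).

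Of 6 end-joining genes, 3 rose in both fits by small amounts and none fell in both. In the fit with the pair term 14.4% of all genes were higher and 10.3% lower. With 6 genes the count is too small to set the class apart. Xrcc4, Lig4 and Nhej1 encode the scaffold, the ligase and the XLF factor that seal the break. Xrcc4 read 5.69, 5.90 and 6.01 in WT and 6.04, 6.13 and 6.21 in cKO tumours, and rose by 0.26 (SE 0.056, limma adjusted p = 0.00242). Nhej1 read 6.35, 6.41 and 6.54 in WT and 6.64, 6.65 and 6.79 in cKO tumours, and rose by 0.25 (SE 0.036, limma adjusted p = 0.000137). Lig4 read 3.51, 3.60 and 3.73 in WT and 3.76, 3.83 and 3.88 in cKO tumours, a difference of 0.22 (SE 0.043, limma adjusted p = 0.00128). None of these 3 genes had overlapping groups, as was so for 23.0% of all genes. Set 2 of Xrcc4 and of Nhej1 rose too, by 0.22 and 0.16. All 3 differences are below 0.307, and Lig4 lay below the median of the nonspecific controls on 3 of 6 WT arrays. Both group means of Lig4, 3.61 and 3.83, lay below 4.29, so the size of a rise cannot be bounded for it. Of the genes for end binding, Xrcc5 and Xrcc6 (Ku80 and Ku70) differed by -0.16 (-0.47 to 0.14) and -0.13, and Prkdc, the kinase recruited by Ku, differed by -0.31. Xrcc6 and Prkdc were called only without the pair term.

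Genes of lesion bypass included no member that rose. Rev3l, the catalytic subunit of polymerase zeta, read 6.44, 6.78 and 7.06 in WT and 5.94, 6.33 and 6.39 in cKO tumours, and fell by 0.48 (SE 0.100, limma adjusted p = 0.0017) on its brightest probe set. Its sets 2 and 3 differed by 0.25 (limma adjusted p = 0.0236, not called with the pair term) and 0.15, and the mean over the 3 sets by -0.03. The direction for Rev3l therefore rests on 1 probe set. Rev1, which recruits the other bypass polymerases, differed by -0.33 and was called only without the pair term. Polh, the polymerase that copies past ultraviolet dimers, was not called, at -0.37 (-0.75 to 0.01), with 7.01 to 8.08 on cKO and 7.72 to 8.19 on WT arrays. The Polh set used carries the suffix x. Rad18, the ligase that marks PCNA for bypass, differed by -0.05 on its brightest set, but set 3 fell by 0.51, from 5.73 to 5.22, with no overlap. Poli differed by 0.08 (-0.02 to 0.19).

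Mgmt, the alkyl transferase, read 6.80, 7.05 and 7.62 in WT and 6.66, 7.10 and 7.5 in cKO tumours. The groups lay on top of each other, with a difference of -0.06 (-0.41 to 0.29; limma adjusted p = 0.794). Of the 20 repair genes not called, 12 had a 95% interval wholly within 0.307 of 0 in the fit without the pair term, and 8 in the fit with it. For the others the interval does not leave out a larger difference.

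**Figure D3:**
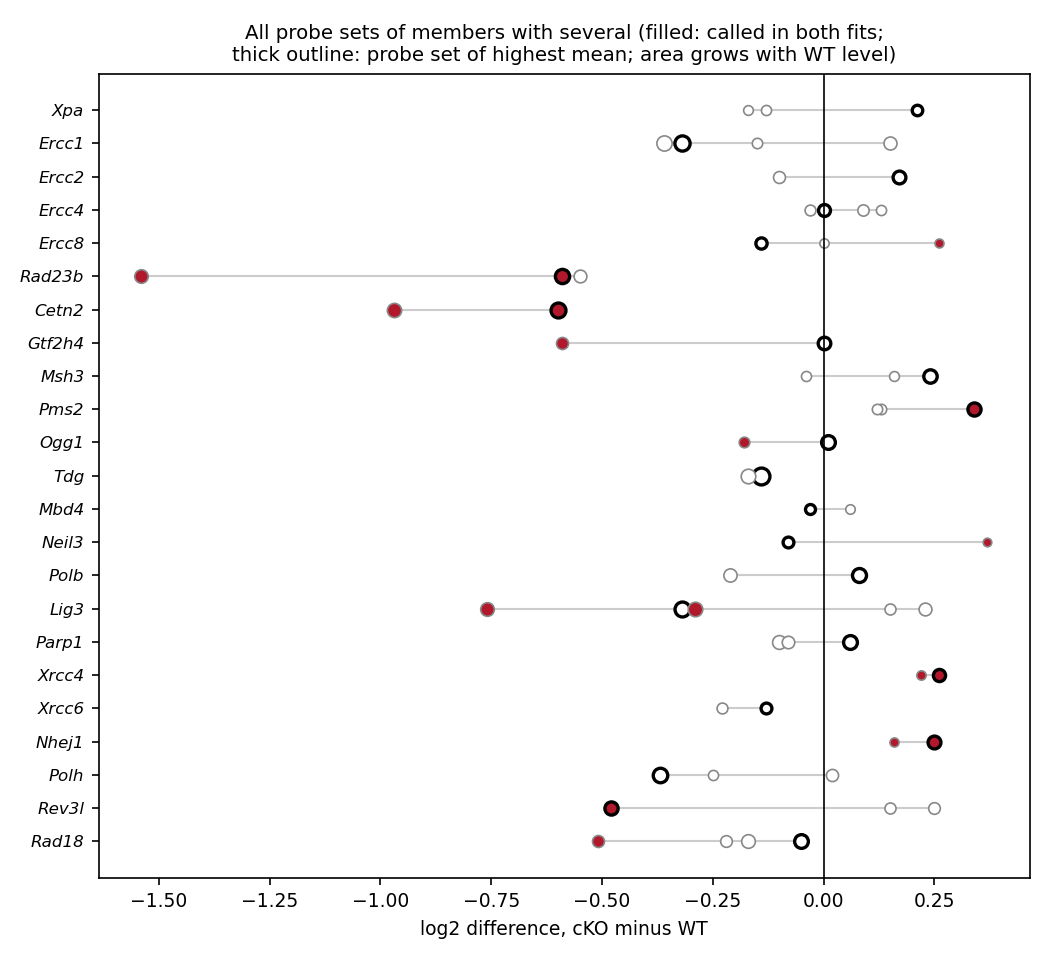
The log2 difference between cKO and WT tumours (x axis) is plotted for every probe set (points) of the 23 repair genes that have several, with point area growing with the WT level, filled points called in both fits over all probe sets and thick outlines marking the set of highest mean. The sets of 14 of these genes lie on both sides of 0, while all sets of Rad23b, Cetn2, Pms2, Xrcc4 and Nhej1 lie on the side of their brightest set.

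The choice of probe set mattered for other genes of the list. In 6 genes that were not called in both fits, another probe set was: Ercc8, Gtf2h4, Ogg1, Neil3, Lig3 and Rad18. The same count over all genes was not computed, and 24.7% of all genes were called in the fit with the pair term. The count is therefore no result about the list. Different sets of a gene can read different transcript ends or isoforms, and which transcripts these sets match was not examined.

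**Figure D4:**
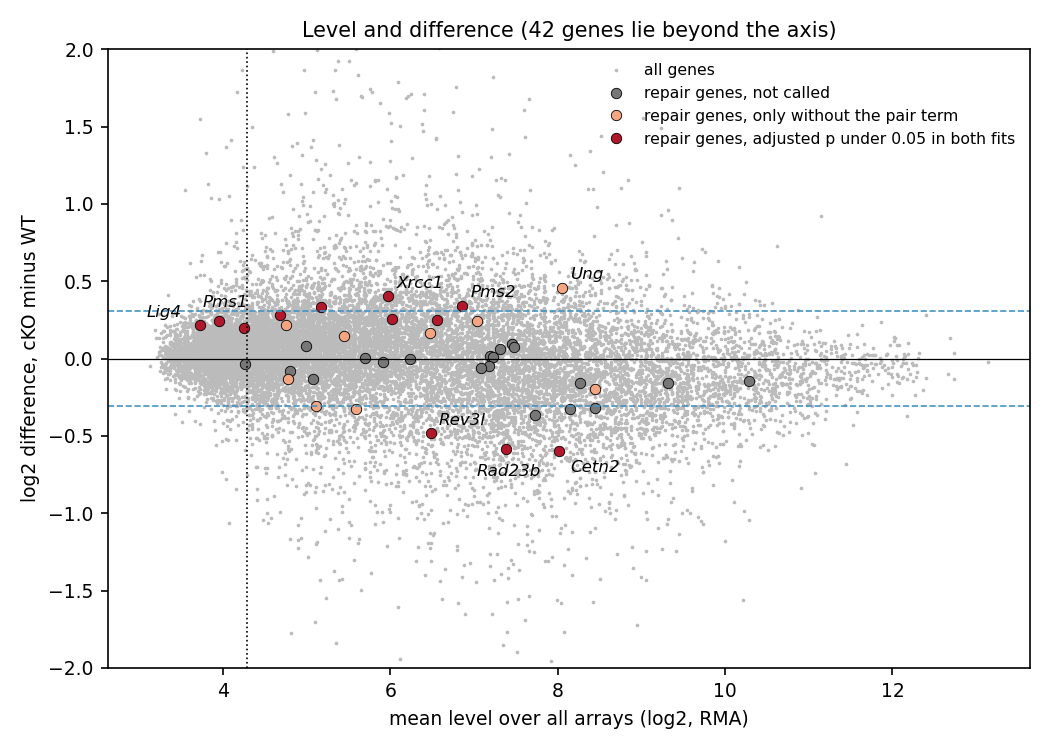
Mean level over all arrays (x axis, log2 after RMA) is plotted against the log2 difference between cKO and WT tumours (y axis, cut at 2, with 42 genes beyond it) for all 17097 genes (light grey) and the 41 repair genes (large points, coloured by their calls as in the plot of differences). The dotted line marks 4.29 (the upper quartile among nonspecific controls) and the dashed lines 0.307; of the large points, 11 lie beyond the dashed lines.

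Part of the negative differences ran with brightness. Rad23b lay in the decile of level with a median difference of -0.0779 over all genes and Cetn2 in that with -0.114, and after quantile normalization these deciles had medians of 0.0494 and 0.0398. Rad23b and Cetn2 then differed by -0.46 each (limma adjusted p = 5.77e-05 and 0.001). Pms2 differed by 0.42 and Nhej1 by 0.31 after quantile normalization, in a decile whose median was 0.0856.

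Further genes of the same pathways included more called lower than higher. Of 44 such genes measured (6 of the 50 listed were not), 8 were higher and 16 lower without the pair term, against 25.7% and 20.1% of all genes (here 18.2% and 36.4%). In the fit with the pair term 14.4% of all genes were higher and 10.3% lower. Of the 44 genes, 4 rose (9.09%) and 11 fell (25%) in both fits. The median difference was -0.098 and became 0.034 after quantile normalization. After that normalization 10 were higher and 12 lower. Mad2l2, the REV7 subunit that binds Rev3l, rose from 6.64, 6.78 and 6.91 in WT to 7.18, 7.52 and 7.57 in cKO tumours, a difference of 0.66 (SE 0.075, limma adjusted p = 2.54e-05). The genes of these polymerase zeta subunits thus differed in opposite directions on the probe sets used. Ube2a, one of the ubiquitin-conjugating partners of Rad18, fell by 0.64 (8.33 to 8.75 in WT, 7.65 to 8.01 in cKO), while the near-identical Ube2b differed by 0.08 (-0.09 to 0.26). Shprh and Hltf, ligases that extend ubiquitin chains on PCNA (Hltf and Ube2b were picked after their values were seen), went opposite ways. Shprh rose by 0.68 (5.85 to 6.66 in WT, 6.68 to 7.13 in cKO), but its sets 2, 3 and 4 differed by -0.04, 0.06 and 0.24 and the mean over the sets by 0.24, so the size rests on 1 probe set. Hltf fell by 0.37. Uvssa and Xab2, of transcription-coupled repair, rose by 0.49 and fell by 0.34. Xab2 was not called with the pair term after quantile normalization (-0.20, limma adjusted p = 0.105) or on its set 3 (-0.20, limma adjusted p = 0.0854). Its sets 1 and 2, which were called, carry the suffix x, and set 3 does not. The fall of Xab2 thus rests on sets with probes that can match other transcripts. The uracil glycosylase Smug1 fell by 0.54 (7.24 to 7.77 in WT, 6.76 to 7.17 in cKO), next to the higher values of Ung. Fen1, the flap nuclease of long-patch base excision, was lower in cKO tumours (measured means of 4.33 and 3.87, limma adjusted p = 2.01e-06). Its cKO mean lay below 4.29, so against a floor of 4.23, the mean over cKO arrays of each array's upper quartile of nonspecific controls, it was at least 1.07-fold lower.

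**Figure D5:**
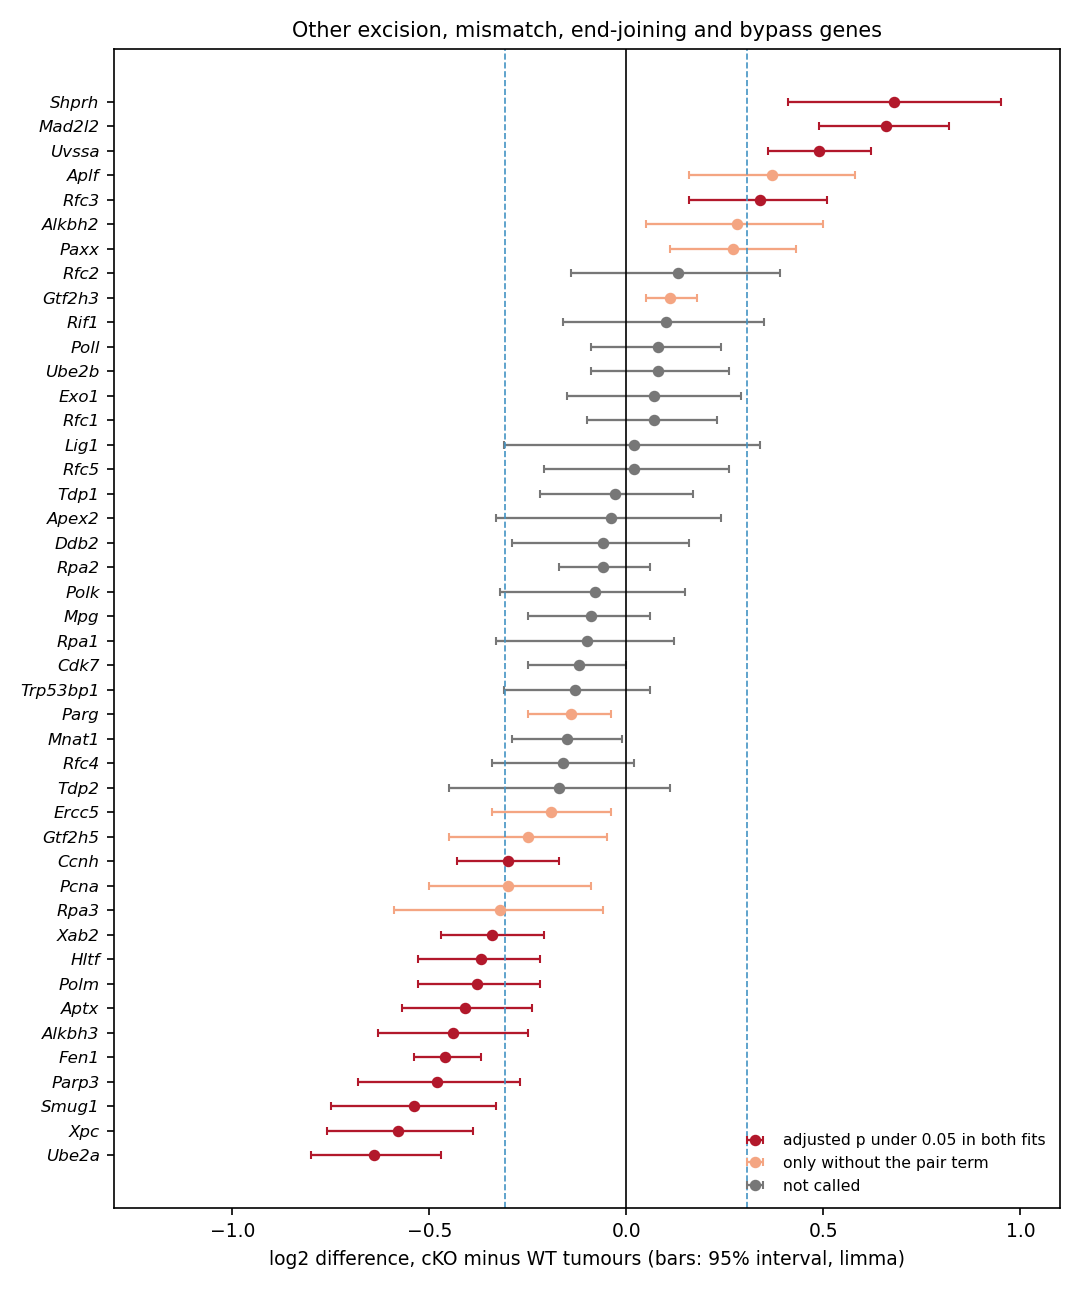
The log2 difference between cKO and WT tumours (x axis, points) is plotted with its 95% interval from limma (bars) for 44 further genes of the same pathways, coloured by call as in the plot of repair genes by role, with dashed lines at 0.307 on either side of 0. Shprh and Mad2l2 lie farthest to the right, at 0.68 and 0.66 on their brightest probe sets (Shprh at 0.24 as the mean over its sets), and Ube2a farthest to the left, at -0.64.

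Markers of cell makeup differed between the same tumours. The counts that follow are from the fit without the pair term, where 25.7% of all genes were higher and 20.1% lower. The keratinocyte list had 1 gene higher and 1 lower of 7, with mean log2 levels of 10.19 to 10.92 on WT and 10.02 to 11.38 on cKO arrays, and Krt5 and Krt14 stood above 12 in both groups. Of 8 fibroblast markers 6 were higher and none lower, with mean levels of 4.61 to 5.50 in WT and 5.99 to 6.51 in cKO tumours, and of 7 endothelial markers 5 were higher and none lower (4.40 to 5.45 and 5.56 to 6.02). Macrophage and neutrophil markers had 3 higher and 1 lower of 8, T cell markers 1 and 1 of 5, B cell markers 1 and none of 3, melanocyte markers 2 and 2 of 5, muscle markers 1 and none of 4, and adipocyte markers 1 and none of 2. With the pair term, 14.4% of all genes were higher and 10.3% lower. In that fit 6 fibroblast, 4 endothelial, 2 macrophage and neutrophil and 1 keratinocyte marker were higher, and none of these lists had a lower one. T cell markers then had 1 higher and 1 lower. Melanocyte, muscle and adipocyte markers each had 1 higher, and B cell markers had none. Of 9 proliferation genes 1 was higher and 4 lower, none of them called with the pair term, with mean levels of 7.27 to 7.98 in WT and 7.14 to 7.67 in cKO tumours. The part of cell makeup or of proliferation in the differences of repair genes was not tested.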

How the data were processed

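The authors deposited 1 log2 value per probe set and array, made with RMA according to the submitters' processing notes. The version of RMA, the chip description it used and any later adjustment: not given in the sources used here. Per the labels' protocols, 25 ng of TRIzol RNA was amplified with 17 cycles, and 8 µg of cDNA was labelled with biotin. Groups come from the sample titles. Of 45141 probe sets, 28898 have 1 gene symbol in the platform annotation, 551 several, 15588 none, and 104 are controls; names come from that annotation, and the mouse RefSeq table held the gene number of 28689 sets with 1 symbol and changed 0 symbols.

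Differences (cKO minus WT) were fitted on all 17097 genes with limma 3.58.1 in R 4.3.3 (lmFit, eBayes, groups only); tests were two-sided and Benjamini-Hochberg adjusted, with a threshold of 0.05; SE and 95% intervals are from this fit. The fit with the pair term gives each pair of neighbouring arrays that mirror each other its own mean. p-values of single probe sets were adjusted over all sets with 1 symbol. Exact permutation ran over all 1716 splits. The fits were tested on simulated data.

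The genes, the lists and the pair term were chosen with earlier results of these data known. Values were given in full for members called in both fits and, for a class with none, its member of smallest p (among the classes used, this adds Mgmt), and for at most 8 further pathway genes by smallest p; other members were described more briefly. Alternatives were median centring, quantile normalization, filters at the 25th and 50th percentile, the mean over probe sets, the replicate number as a block, array weights, a trended robust prior, the pair term alone and after quantile normalization, each array left out, and an adjusted p under 0.01. No dim-probe filter was used; no scanner files were used. Depth does not apply to arrays, and their number limits the precision. Figures: matplotlib 3.10.9.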

Additional observations from a re-analysis of the deposited data

Results flagged for a closer look

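In 2 of 46 groups of arrays looked at, for the genes given in full and Ehmt2, 1 array lay far from the others of its group; chance flags about 1 in 20 groups. Nhej1 read 6.79 on cKO replicate 9, with the next array at 6.69, and Uvssa read 6.24 on WT replicate 4, with the next at 6.10. Both genes kept their calls when that array was left out, with a range over all left-out arrays of 0.23 to 0.27 for Nhej1 and 0.46 to 0.53 for Uvssa.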

How the results depend on the processing

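The 12 repair genes called in both fits kept direction and call under median centring, quantile normalization, the trended robust prior, array weights, the replicate block and each array left out. Exceptions elsewhere were Rev3l, -0.03 as the mean over probe sets (adjusted p = 0.745) and 0.25 and 0.15 on its sets 2 and 3, Pms2 set 3 (0.12, adjusted p = 0.182) and Mlh3 with the pair term after quantile normalization (0.17, adjusted p = 0.0799). Xab2, a further pathway gene, lost its call with that term and normalization (-0.20, adjusted p = 0.105) and on set 3 (-0.20). Mgmt, not called, turned to 0.04 after quantile normalization, without or with the pair term, and ranged from -0.13 to 0.05 with arrays left out; Shprh set 2 gave -0.04. Repair genes called higher numbered 7 and lower 4 among genes above the 50th percentile, where 26 of the 41 were tested; with the pair term they numbered 9 and 3, with it after quantile normalization 3 were lower, and at an adjusted p under 0.01 also 3. With arrays left out, 13 to 14 were higher and 5 to 8 lower. Further pathway genes called numbered 4 higher with the pair term, 9 lower above the 50th percentile and 8 lower when that term followed quantile normalization (7 to 8 higher and 12 to 16 lower with arrays left out). Over all genes, 2901 were higher above the 25th percentile, and 1434 were higher and 2019 lower above the 50th. With the pair term 2459 were higher and 1769 lower, and with it after quantile normalization 2587 and 1342. At an adjusted p under 0.01, 2234 were lower. With arrays left out, 3999 to 4301 were higher and 3017 to 3475 lower. Only the percentile filters tested fewer genes, and the causes of the other changes were not tested. Ehmt2 probe set 1 passed after quantile normalization (0.24, adjusted p = 0.0144) and without WT replicate 9 (0.17, range 0.07 to 0.17), and set 2 ranged from -2.39 to -2.27. With the replicate number as a block, 14 repair genes were higher and 7 lower; the numbers 2, 6, 8 and 9 occur in both groups, the deviations of same-numbered arrays correlated from -0.298 to 0.0491, and so the numbers do not pair the samples. Signals below 4.29 (Pms1, Mlh3, Lig4, Mbd4) limit what these arrays show.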

Other observations

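Spread within groups differed between repair genes. The SD was larger on WT than on cKO arrays for 29 of 41 (70.7%), beside 65.9% of all genes. Parp1, chosen after its values were seen, had the largest ratio: it ranged from 6.81 to 7.75 on WT and from 7.19 to 7.49 on cKO arrays, with SDs of 0.40 and 0.10 (n = 6 and 7). Polh and Ercc1 had the opposite pattern, with SDs of 0.21 and 0.18 on WT and 0.42 and 0.36 on cKO arrays. These differences in spread were not tested.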
